A study of Mus musculus with 2 samples.

Results

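Within a mouse culture of induced myogenic progenitor cells (iMPC), cells that held RNA of only 1 of the muscle regulators Myf5 and Myod1 were set against each other. The 821 cells were chosen from unique molecular identifier (UMI) counts, in which each captured RNA molecule is counted 1 time. A barcode entered the gate with a minimum of UMIs just above 8000 (the shallowest gated cell held 8045), at least 500 genes, at most 20% mitochondrial UMIs, no Myog UMI and at most 1 Dcn UMI. Of the 9349 iMPC cells kept by the first 3 limits, 3126 met the whole gate. Myf5-only cells held at least 2 Myf5 UMIs and no Myod1 UMI, and there were 411 of them (13.1% of the gate). Myod1-only cells held at least 2 Myod1 UMIs and no Myf5 UMI, and there were 410 (13.1%). In the same gate, 341 cells held at least 2 UMIs of each gene, 864 held neither, and the other 1100 held other combinations. The series as a whole held 15361 kept cells.

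The study profiled 2 cultures with a droplet 3' RNA assay, both of the genotype Tg:Pax7-nGFP/C57BL6;DBA2. The iMPC culture was generated from mouse embryonic fibroblasts (MEF) with MyoD plus a treatment abbreviated F/R/C and was kept in medium with F/R/C. The MEF culture was kept in MEF medium by its treatment label, although its protocol field repeats the iMPC treatment. The design text names a stable iMPC clone, each culture is 1 library, and both sides of the comparison lie in the iMPC library. The expressing construct for MyoD is not described in the labels, and the 3' counts do not separate introduced Myod1 RNA from that of the cells' own gene.

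Myf5 and Myod1 encode related basic helix-loop-helix transcription factors that commit cells to the muscle lineage. They bind DNA at E-boxes together with E proteins, and Myod1 in particular drives myoblasts towards Myog and the sarcomere genes. Pax7, a paired-box factor, marks satellite cells, the stem cells of adult muscle, and lies upstream of Myf5. Myoblasts in culture often hold either or both of the factors, and the levels vary with the cell cycle.

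Promoter windows were looked up for the genes of the 2 sides and for some genes that differed between them. The set of windows had no entry for Myod1, Msc, Stmn2, Slc2a3 and Barx2, so those of 4 genes are shown. Myf5 chose the Myf5-only cells, Pde1a was higher in Myf5-only cells, and Rpl39l and Acta1 were higher in Myod1-only cells. Each window holds the 250 bases before a RefSeq start site on GRCm38.p6, written 5' to 3' on the gene's strand. Capitals mark CAGCTG, a form of the E-box CANNTG that reads the same on both strands.
Myf5, chr10:107486135-107486384, minus strand: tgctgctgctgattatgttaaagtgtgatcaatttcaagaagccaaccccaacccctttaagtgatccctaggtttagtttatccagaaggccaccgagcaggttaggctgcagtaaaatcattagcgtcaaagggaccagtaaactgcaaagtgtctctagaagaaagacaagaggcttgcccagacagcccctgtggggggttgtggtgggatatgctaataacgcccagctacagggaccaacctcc
Pde1a, chr2:80129413-80129662, minus strand: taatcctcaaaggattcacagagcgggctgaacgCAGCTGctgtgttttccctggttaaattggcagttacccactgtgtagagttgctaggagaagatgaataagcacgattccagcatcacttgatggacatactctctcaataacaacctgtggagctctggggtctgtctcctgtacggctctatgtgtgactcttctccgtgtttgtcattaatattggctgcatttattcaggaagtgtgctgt
Rpl39l, chr16:10169978-10170227, plus strand: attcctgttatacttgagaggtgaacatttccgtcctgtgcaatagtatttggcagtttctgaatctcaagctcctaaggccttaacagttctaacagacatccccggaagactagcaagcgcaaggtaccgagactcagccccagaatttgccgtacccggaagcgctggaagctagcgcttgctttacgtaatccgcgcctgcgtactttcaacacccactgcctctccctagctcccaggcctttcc
Acta1, chr8:123894776-123895025, minus strand: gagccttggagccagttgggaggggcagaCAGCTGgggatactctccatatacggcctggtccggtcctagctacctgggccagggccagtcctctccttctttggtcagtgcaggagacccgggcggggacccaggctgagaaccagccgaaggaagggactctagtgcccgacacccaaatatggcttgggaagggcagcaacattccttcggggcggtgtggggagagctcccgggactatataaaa
The Myf5 and Rpl39l windows held no CAGCTG, while those of Acta1 and of Pde1a, the first of 4 for that gene, each held 1. In order, the 4 Pde1a windows held 1, 0, 2 and 0. Of all 32851 windows given by RefSeq, 13.0% held the motif, and over the 7611 windows of genes compared here 11.3% did. Of the 117 windows of genes at least 1.5-fold higher in Myf5-only cells 13 held it (11.1%, 6.05 to 18.3). Of the 113 windows of genes at least 1.5-fold higher in Myod1-only cells 24 held it (21.2%, 14.1 to 29.9). These windows belong to 86 and 89 genes. The intervals treat windows of the same gene as independent and so can be too narrow, and enrichment was not tested. A gene can have several windows, and a match describes letters in a window and is not a binding site.

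The 3126 gated cells held 59470523 UMIs with 31.5% in ribosomal protein genes, and 30 of them (0.960%) were scored as doublets. The label was read against 24 satellite cell genes. Of these, 16 reached 10 CPM (UMIs of a gene per 1000000 UMIs of a class) over the gate. The list summed to 2540 CPM in Myf5-only, 2776 CPM in Myod1-only and 1979 CPM in neither cells. The muscle cadherin Cdh15, chosen after its values were seen, stood at 198 CPM in Myf5-only and 201 CPM in Myod1-only cells. It was at 93.0 CPM in cells with neither factor and 29.0 CPM in cells with at least 10 UMIs of the fibroblast gene Dcn. Some members did not set the sides above neither cells. In the same order of classes, Vcam1 stood at 43.3, 45.6 and 54.0 CPM, Sdc4 at 268, 262 and 265 CPM and Fgfr1 at 64.7, 68.7 and 122 CPM. Cd34 and Calcr had 1 UMI in Myf5-only and 0 in Myod1-only cells, and Chrdl2 had none. The 6 endothelial markers summed to 0.587 and 0.782 CPM, the 6 immune markers to 2.47 and 2.35 CPM and the 5 epithelial markers to 0 and 0.130 CPM. Cdh5, Ptprc and Epcam were among those with no UMI. Kept cells of the libraries shared 16 barcode sequences, of which 2 belonged to the cells compared. Free RNA was read from 48846 iMPC barcodes of 200 to 600 UMIs (median 430), and at that dose it would give 0.0807 gated cells with at least 2 Myf5 UMIs and 2.34 with at least 2 Myod1 UMIs.

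The genes that chose the cells are described only. Myf5-only cells held 1419 Myf5 UMIs, which is 167 CPM (158 to 175) and 3.45 UMIs per cell, with a highest cell at 16. Myod1-only cells held 1771 Myod1 UMIs, which is 231 CPM (220 to 242) and 4.32 per cell, with a highest cell at 19. Intervals here and below are exact 95% intervals for counting error only, and the spread between cultures is unknown with 1 library. In cells with at least 2 UMIs of each gene the levels were 150 CPM for Myf5 and 183 CPM for Myod1, and the mean UMIs per cell were 3.54 and 4.32, near those of the sides.

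A value of 0 UMIs in such cells does not show that the RNA was absent, and the choice leans on depth. Over the gate, cells with a Myf5 UMI held a Myod1 UMI more often than others did, with a log2 odds ratio of 0.77 (0.56 to 0.98). After each cell had been thinned to 8000 UMIs the log2 odds ratio was 0.15 (-0.08 to 0.38). Neither value shows the genes avoiding each other in this gate. Just outside the threshold, the 283 cells with 1 Myf5 UMI and no Myod1 UMI held 214 CPM of Stmn2 and 52.0 CPM of Rpl39l. The 172 cells just inside, with 2 Myf5 UMIs, held 259 and 42.2 CPM. On the other side the 252 cells with 1 Myod1 UMI held 127 CPM of Stmn2 and 87.1 CPM of Rpl39l, and the 127 cells with 2 held 145 and 112 CPM. Other genes moved more at the edge: Cck was 74.8 CPM just outside and 5.63 CPM just inside on the Myf5 side, and 57.0 and 145 CPM on the Myod1 side. Acta1 was 365 and 204 CPM on the Myf5 side, and 444 and 594 CPM on the Myod1 side.

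Myf5-only cells were deeper. Their median was 19526 UMIs per cell (quartiles 15260 and 24630) against 17356 (13743 and 22392) in Myod1-only cells, a ratio of 1.13, and the interquartile ranges overlapped. Median genes per cell were 4100 and 3807, and median mitochondrial shares were 3.34% and 3.61%. Cells with both genes were deeper than either side at 22463 UMIs and cells with neither were shallower at 15174. Depth takes part in the rule, so these are descriptions.

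Pax7 was slightly higher in Myf5-only cells. Its summed level was 98.97 CPM (92.4 to 106, 843 UMIs) in Myf5-only and 83.3 CPM (77.0 to 90.02, 639 UMIs) in Myod1-only cells, a log2 ratio of 0.25 (0.10 to 0.40). Cells with both genes lay between the sides at 90.9 CPM, and cells with neither were lowest at 56.3 CPM. At 5000 UMIs per cell, 35.0% (30.4 to 39.9) of Myf5-only and 32.0% (27.5 to 36.7) of Myod1-only cells held a Pax7 UMI, so the shares overlapped within counting error. The unthinned shares were 73.5% and 69.8%. Among the 412 iMPC cells with at least 10 Dcn UMIs the thinned share was 12.9% and the unthinned share 32.8% at a median of 17916 UMIs. In MEF cells (median 19033 UMIs) it was 0 of 5761 thinned, which allows a share of up to 0.0521%, and 2 of 6012 unthinned. The direction was the same in all 3 classes of depth. The log2 ratios were 0.33 (0.0016 to 0.67) under 15000 and 0.26 (0.05 to 0.48) from 15000 to 25000 UMIs. At 25000 UMIs or more the log2 ratio was 0.25 (-0.03 to 0.55), so counting error does not fix the direction there. In cells without a Mki67 or Top2a UMI the direction did not hold, with a log2 ratio of -0.20 (-0.51 to 0.10). In cells with one the log2 ratio was 0.40 (0.23 to 0.58).

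Cycling genes were close on both sides and above the cells with neither factor. Mki67, a marker of proliferating cells, stood at 149 CPM (141 to 158) in Myf5-only and 140 CPM (132 to 149) in Myod1-only cells, a log2 ratio of 0.09 (-0.03 to 0.21). In cells with neither gene it was 73.9 CPM and in cells with both 163 CPM. Top2a, the DNA topoisomerase of dividing cells, stood at 368 and 348 CPM, with 151 CPM in cells with neither and 430 CPM in cells with both. A UMI of Mki67 or Top2a was found in 284 Myf5-only (69.1%) and 268 Myod1-only cells (65.4%).

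The S phase and G2/M genes leaned different ways, by little. None of 37 S phase genes compared passed 1.5-fold, where 3.32% of all genes did, and their median log2 ratio was -0.06 beside 0.04 over all 7420 genes compared. Rrm2, a subunit of ribonucleotide reductase, stood at 70.1 CPM in Myf5-only and 88.0 CPM in Myod1-only cells, and the replicative helicase subunit Mcm4 at 26.3 and 34.2 CPM. Of 51 G2/M genes 48 had a ratio above 1 towards Myf5-only cells and their median log2 ratio was 0.22. Only Nek2 (0.69) and Kif20b (0.59), a mitotic kinase and a kinesin, passed 1.5-fold on that side and none did on the other, against 1.56% of all genes compared towards Myf5-only cells. Cdc20, an activator of the anaphase-promoting complex, was at 96.6 and 68.7 CPM. Per cell, G2/M genes took a median of 0.466% of UMIs in Myf5-only and 0.371% in Myod1-only cells, with wide overlap (quartiles 0.132% to 0.959% and 0.117% to 0.789%). The lean was smaller among cells of like depth: within the 3 depth classes the G2/M medians were -0.09, 0.01 and 0.15, and 0.09 when the classes were given equal weight on both sides.

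**Figure D1:**
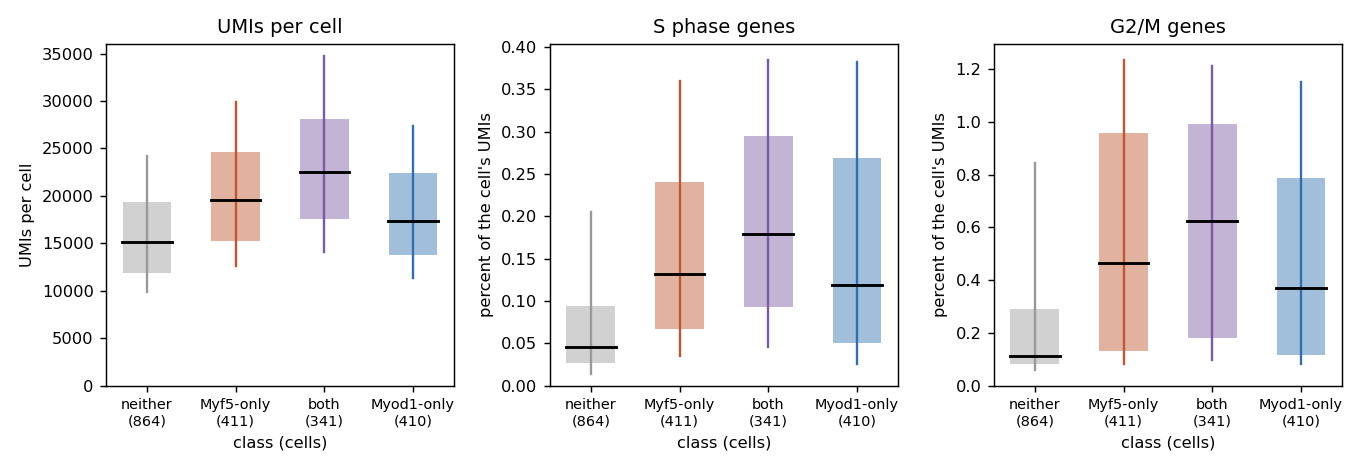
UMIs per cell (left) and the percent of each cell's UMIs in S phase genes (middle) and G2/M genes (right), for gated cells with neither gene, Myf5 only, both, and Myod1 only. Black lines are medians, boxes quartiles and thin lines the 10th to 90th percentiles over cells. The sides overlap in all 3 panels, and cells with neither gene are lowest in each, with a G2/M median of 0.112%.

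Across the transcriptome the sides were alike. Of 7420 genes with at least 10 CPM over the gate, 116 (1.56%) were at least 1.5-fold higher in Myf5-only cells and 130 (1.75%) in Myod1-only cells, 246 (3.32%) in all. Past 2-fold, 19 and 31 genes remained. Counting intervals lay apart from a ratio of 1 for 16.3% of genes towards Myf5-only and 9.5% towards Myod1-only cells. When the totals were replaced by a factor taken as the typical gene's ratio, the split became 89 and 150. At 5000 UMIs per cell the share of cells with a UMI differed by at least 10 percentage points for 13 of the 116 genes towards Myf5-only cells and 4 of the 130 towards Myod1-only cells. Without thinning, where the deeper Myf5-only cells gain, these numbers were 70 and 13.

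**Figure D2:**
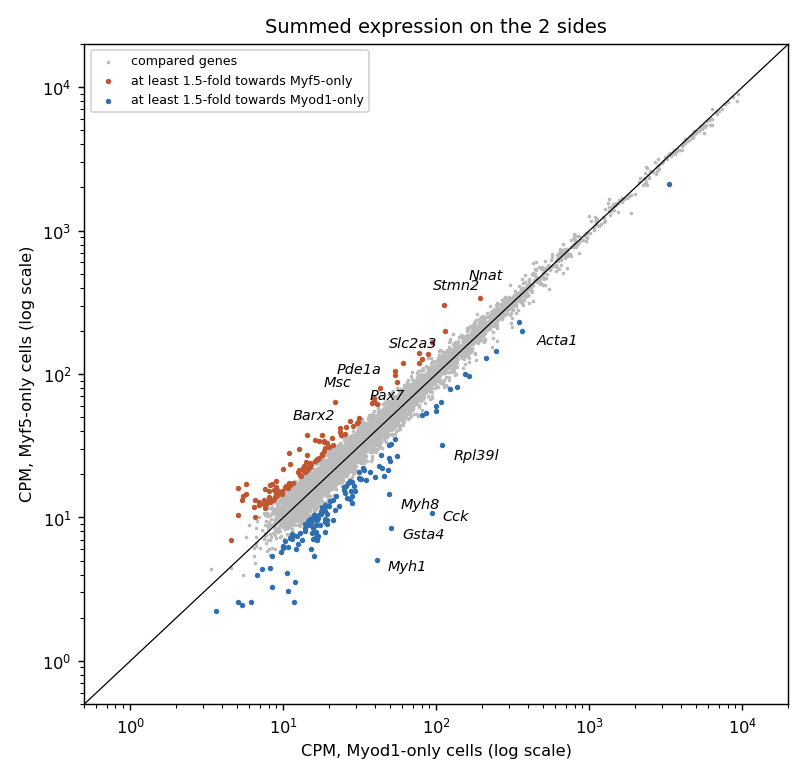
Summed CPM of each of the 7420 compared genes in Myod1-only (x) and Myf5-only cells (y), both on log scales. Orange points are the 116 genes at least 1.5-fold higher in Myf5-only cells and blue points the 130 in Myod1-only cells. Stmn2 and Msc lie above the diagonal, and Cck, Gsta4 and Rpl39l below it.

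Msc and Stmn2 had the largest ratios towards Myf5-only cells among the genes described here. Msc (chr1:14753346-14755992 in GENCODE M21) encodes musculin, a basic helix-loop-helix repressor that competes with Myod1 for E-boxes. It stood at 64.3 CPM (59.1 to 69.95, 548 UMIs) in Myf5-only and 21.6 CPM (18.5 to 25.2, 166 UMIs) in Myod1-only cells, a log2 ratio of 1.57 (1.32 to 1.83). Cells with both held 44.5 CPM and cells with neither 14.2 CPM. At 5000 UMIs 20.9% of Myf5-only and 7.80% of Myod1-only cells held a Msc UMI, against 2.43% of cells with at least 10 Dcn UMIs, and unthinned the sides stood at 49.1% and 24.4%. Stmn2 (chr3:8509360-8561606), a stathmin that destabilises microtubules and is best known from neurons, stood at 305 CPM (293 to 317) and 112 CPM (105 to 120), a log2 ratio of 1.44 (1.33 to 1.56). At 5000 UMIs it was found in 39.7% and 17.8% of cells, against 6.80% of cells with at least 10 Dcn UMIs and 3.44% of MEF cells, and unthinned in 51.6% and 26.1%. The highest single cells held 76 and 47 UMIs.

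Slc2a3 and Pde1a were nearly 2-fold higher in Myf5-only cells and were found widely. Slc2a3, the glucose transporter GLUT3, stood at 120 CPM (113 to 127) against 60.5 CPM (55.1 to 66.3), a log2 ratio of 0.99 (0.83 to 1.15). Its thinned shares were 38.4% and 19.8% of cells (72.7% and 48.5% unthinned), with 0.208% in MEF cells. Cells with at least 10 Dcn UMIs, at 40.05%, were level with the Myf5-only side. Pde1a, a calmodulin-dependent phosphodiesterase of cyclic nucleotides and 1 of the genes whose window is printed above, stood at 106 and 53.6 CPM, a log2 ratio of 0.98 (0.81 to 1.15). Cavin2, a coat protein of caveolae, was at 79.7 and 42.9 CPM (0.89), and Ralgps2, an exchange factor for Ral GTPases, at 141 and 77.3 CPM (0.87). Barx2, a homeobox factor of myoblasts chosen after its values were seen, was at 37.7 and 14.2 CPM (1.41, 1.09 to 1.73). Barx2 RNA lay in fewer cells, with thinned shares of 11.4% and 4.63%. The 5% highest cells held 49.8% of its UMIs in Myf5-only and 67.9% in Myod1-only cells. Msc, Stmn2, Slc2a3, Pde1a, Cavin2, Ralgps2 and Barx2 were each higher in Myf5-only cells in all 7 subsets examined (with or without a Pax7 UMI, with or without a Mki67 or Top2a UMI, and 3 depth classes). The log2 ratio of Cavin2 was 0.19 (-0.37 to 0.75) under 15000 UMIs and that of Ralgps2 0.29 (-0.05 to 0.63) without a Mki67 or Top2a UMI, so counting error does not fix the direction there.

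All gated cells were then sorted by their UMIs of both genes, which gives the levels between the sides. With no Myod1 UMI, Stmn2 stood at 159, 214 and 305 CPM in cells with 0, 1 and at least 2 Myf5 UMIs. With at least 2 Myf5 UMIs it was lower with more Myod1, at 305, 243 and 215 CPM. Slc2a3 was lower with more Myod1: it was 93.2, 83.6 and 60.5 CPM over 0, 1 and at least 2 Myod1 UMIs in cells without Myf5, and 120, 77.1 and 56.8 CPM in cells with at least 2 Myf5 UMIs. In cells with at least 2 Myod1 UMIs its level was nearly the same whatever the Myf5 count, from 54.7 to 60.5 CPM. Msc was higher with more Myf5, at 14.2, 33.7 and 64.3 CPM without Myod1. Pax7 was lowest without either gene and highest in Myf5-only cells.

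**Figure D3:**
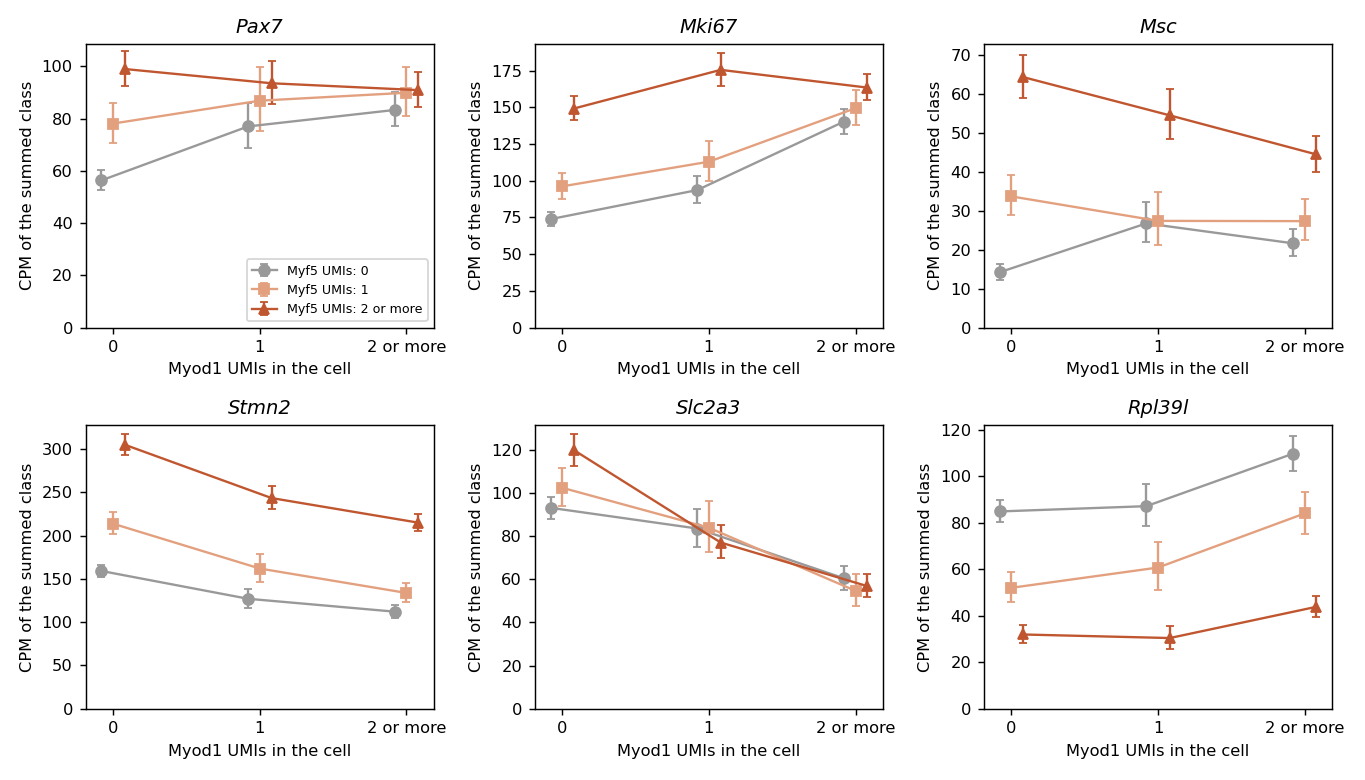
Summed CPM of 6 genes in 9 classes of gated cells, by Myod1 UMIs (x) and Myf5 UMIs (colour and symbol). Bars are exact 95% intervals for counting error. Stmn2 and Msc are highest with at least 2 Myf5 UMIs and no Myod1 UMI, Slc2a3 is lowest in each Myf5 class at 2 or more Myod1 UMIs, and Rpl39l is lowest at 2 or more Myf5 UMIs.

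Cytoskeletal genes best known from neurons were higher together in Myf5-only cells. This list was drawn up after the values were seen: 7 of its 10 compared genes were at least 1.5-fold higher in Myf5-only cells (1.56% of all genes were), none in Myod1-only cells, and the median log2 ratio was 0.81. In cells under 15000 UMIs the median was 0.34. Beside Stmn2 the 7 were the tubulin Tubb3 (98.1 and 53.8 CPM), the microtubule-binding proteins Map2 (29.9 and 12.6 CPM) and Dpysl3 (65.9 and 39.1 CPM), and the intermediate filament genes Nefl (23.5 and 11.1 CPM), Nefm (11.6 and 7.56 CPM) and Prph (13.1 and 5.34 CPM). Stmn1, a relative of Stmn2 tied to dividing cells, was alike at 374 and 387 CPM. Of the 4 genes of the neuron marker list only Tubb3 and Stmn2 reached 10 CPM.

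Imprinted genes leaned the same way in part. Of 19 compared, in another list drawn up after the values were seen, 4 were at least 1.5-fold higher in Myf5-only cells (1.56% of all genes were) and none in Myod1-only cells, with a median log2 ratio of 0.17. Dlk1, a membrane protein related to Notch ligands, stood at 166 and 94.1 CPM (0.82). Nnat, a small membrane protein, stood at 339 and 192 CPM (0.82) and was higher still, at 454 CPM, in cells with both factors. Those cells were also deeper than either side, with a median of 22463 UMIs, and the part of depth in this level was not tested. Peg10, derived from a retrotransposon, stood at 200 and 114 CPM (0.81), and Asb4, a ubiquitin ligase adaptor, at 14.2 and 5.48 CPM (1.38). Cdkn1c went the other way at 226 and 309 CPM (-0.45), so the list did not lean one way throughout. Dlk1, Nnat and Peg10 were each higher in Myf5-only cells in all 7 subsets, but counting error did not always fix the direction. Under 15000 UMIs the log2 ratio was 0.28 (-0.02 to 0.58) for Nnat and 0.16 (-0.16 to 0.48) for Peg10. At 25000 UMIs or more these ratios were 0.997 and 1.09. The Dlk1 log2 ratio was 0.26 (-0.03 to 0.55) in cells without a Pax7 UMI.

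Towards Myod1-only cells Rpl39l differed across many cells. This gene (window printed above) encodes a paralog of the ribosomal protein Rpl39 known best from testis. It stood at 31.9 CPM (28.3 to 36.0, 272 UMIs) in Myf5-only and 110 CPM (102.3 to 117, 841 UMIs) in Myod1-only cells, a log2 ratio of -1.78 (-1.98 to -1.58). At 5000 UMIs it was found in 10.7% of Myf5-only and 30.5% of Myod1-only cells, and unthinned in 18.7% and 44.6%. It was lower with more Myf5, at 84.8, 52.0 and 31.9 CPM without Myod1 and at 110, 84.0 and 43.8 CPM with at least 2 Myod1 UMIs. The size of the difference varied between subsets. The log2 ratio was -0.57 (-0.95 to -0.19) under 15000 UMIs and -2.47 (-2.85 to -2.10) at 25000 UMIs or more. It was -0.73 (-1.07 to -0.39) in cells without and -2.26 (-2.53 to -2.01) in cells with a Mki67 or Top2a UMI. Rpl39 itself, whose reads could be assigned to its near copy, stood at 5451 and 5817 CPM (-0.09). The Rpl39l share in cells with at least 10 Dcn UMIs was 103 of 412 cells and in MEF cells 15.5%. The low level was shared by cells with at least 2 Myf5 UMIs and 1 Myod1 UMI, at 30.4 CPM.

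Cck had the largest ratio of the genes described here, and it came from few cells. Cck, the peptide hormone cholecystokinin, stood at 10.7 CPM (8.60 to 13.1) in Myf5-only and 93.7 CPM (87.0 to 101) in Myod1-only cells, a log2 ratio of -3.13. In Myod1-only cells 11 cells with at least 5 UMIs held 684 of the 719 UMIs (95.1%), and in Myf5-only cells 4 cells held 71 of 91 (78.0%). Without those cells the levels were 2.37 and 4.69 CPM. The 11 cells also held 1090 CPM of Gsta4 and 425 CPM of Nqo1, against 22.4 and 29.3 CPM in the remaining Myod1-only cells. Cells with neither factor held more Cck, at 218 CPM, than either side.

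Genes of the Nrf2 antioxidant response were lower in Myf5-only cells. The list was drawn up after the values were seen: of 18 genes none was at least 1.5-fold higher in Myf5-only cells and 7 were in Myod1-only cells (1.75% of all genes were), with a median log2 ratio of -0.29. They were the glutathione transferases Gsta4 (8.45 and 50.8 CPM) and Gstm1 (55.3 and 99.7 CPM), the quinone reductase Nqo1 (19.0 and 39.9 CPM), Cbr3, the glutathione synthesis gene Gclm (22.2 and 44.3 CPM), the cystine carrier Slc7a11 and the ferritin chain Fth1 (log2 ratio -0.64). Gsta4 and Nqo1 lay in few cells. The 5% highest held 91.7% of Gsta4 UMIs in Myf5-only and 92.3% in Myod1-only cells, and 65.4% and 59.5% of Nqo1 UMIs. Without the 11 Myod1-only cells with at least 5 Cck UMIs, that side stood at 22.4 CPM of Gsta4 and 29.3 CPM of Nqo1. Without the 4 such Myf5-only cells, the Myf5-only side stood at 5.81 CPM of Gsta4 and 17.0 CPM of Nqo1. Cells with both factors held 18.6 CPM of Nqo1, near the Myf5-only level, and cells with neither were highest at 115 CPM. Aebp1, a matrix protein, followed the same order at 25.9, 48.8 and 263 CPM in Myf5-only, Myod1-only and neither cells. The 16 fibroblast markers summed to 1846 CPM in Myf5-only and 1823 CPM in Myod1-only cells, close to each other, and were higher in cells with neither factor (4251 CPM) and in cells with at least 10 Dcn UMIs (7539 CPM). Of 9 compared only Col1a1 passed 1.5-fold (14.1 and 28.03 CPM), and without 6 Myod1-only cells rich in sarcomere RNA its level on that side was 15.8 CPM. Dpt and Mfap5 had no UMI on either side. The part of fibroblast RNA in the result was not tested.

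Sarcomere genes had higher sums in Myod1-only cells, and 6 cells held much of the difference. Of 21 compared, 11 were at least 1.5-fold higher in Myod1-only cells (1.75% of all genes were) and none in Myf5-only cells, with a median log2 ratio of -0.59. The skeletal actin Acta1, whose window is among those printed, stood at 199 CPM (190 to 209) and 364 CPM (351 to 378), a log2 ratio of -0.87. The embryonic myosin Myh3 stood at 26.9 and 55.5 CPM, the perinatal Myh8 at 14.6 and 49.4 CPM and the light chain Myl1 at 145 and 246 CPM. The adult myosin Myh1 stood at 5.05 and 40.8 CPM, and 1 Myod1-only cell held 196 of its 313 UMIs. Myosin and actin genes have similar copies, so single members are uncertain. Tnnt1 (338 and 335 CPM) and Tnni2 (89.7 and 95.4 CPM) were alike.

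In 6 of 410 Myod1-only cells sarcomere genes took at least 1% of UMIs, and these cells held 8116 of that side's 31588 sarcomere UMIs (25.7%). In Myf5-only cells 1 of 411 did. Without them the summed sarcomere levels were 2972 CPM in Myf5-only and 3112 CPM in Myod1-only cells, and the per-cell median was 0.281% and 0.300% of UMIs. If each cell held 430 UMIs of free RNA, that RNA would make up 72.0% of the Acta1 UMIs of Myf5-only cells and 43.7% of those of Myod1-only cells. Without the 5% of each side's cells with most sarcomere RNA, an alternative chosen after seeing the data, the median log2 ratio of the list was -0.09. Choosing the cells after thinning to 8000 UMIs gave 0.08, the other direction.

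**Figure D4:**
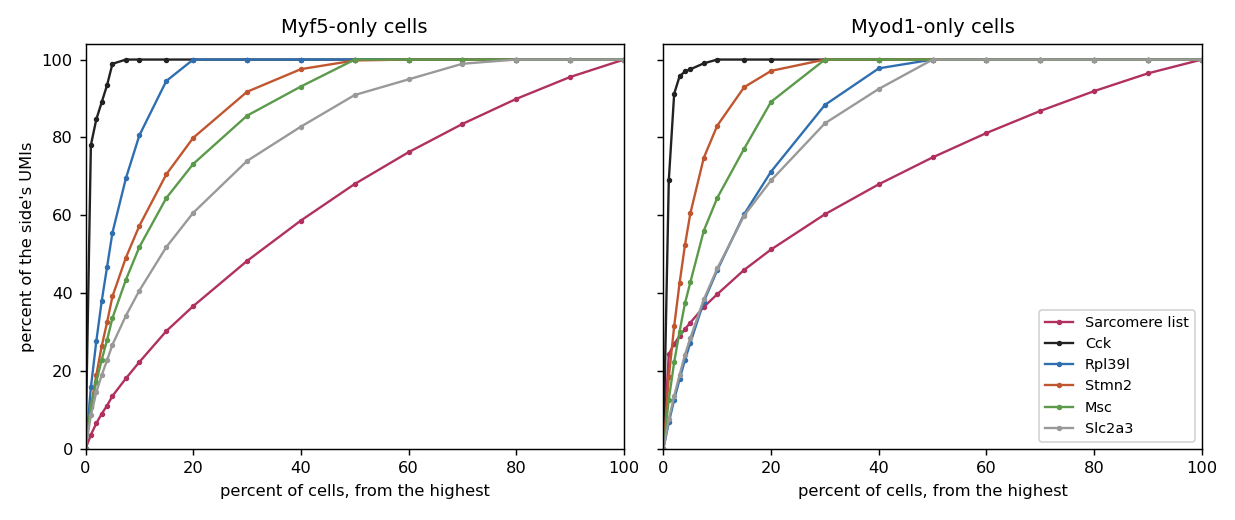
Percent of a side's UMIs (y) held by the given percent of its cells, ranked from the highest (x), for the sarcomere list and 5 genes in Myf5-only (left) and Myod1-only cells (right). The 20 highest Myod1-only cells hold 97.5% of Cck and 32.4% of sarcomere UMIs but 27.2% of Rpl39l UMIs.

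Genes of committed myoblasts, a list that shares Tnnt2, Actc1 and Myl4 with the sarcomere list, showed a smaller lean to Myod1-only cells. Of 19 compared, 5 were at least 1.5-fold higher there (1.75% of all genes were) and none in Myf5-only cells, with a median log2 ratio of -0.17. They were the fusion gene Mymk (7.28 and 16.4 CPM), the acetylcholine receptor genes Chrna1 (10.6 and 19.4 CPM) and Chrng (17.8 and 27.1 CPM), Klhl41 (7.04 and 11.3 CPM) and Tnnt2 (32.3 and 50.3 CPM). Parm1, at 130 and 88.3 CPM, and Cdkn2b, at 55.5 and 38.8 CPM, were higher in Myf5-only cells. Myf6, the remaining muscle regulator of the family, was low on both sides with 51 and 24 UMIs (5.99 and 3.13 CPM). Pax3, the relative of Pax7, had 1 UMI and 0 UMIs. The committed myoblast median was -0.07 without the cells richest in sarcomere RNA and 0.04 with cells chosen after thinning.

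The satellite cell list, Pax7 included, had a median log2 ratio of -0.05. None of its 16 compared genes passed 1.5-fold, where 3.32% of all genes did, so the count says little at this size. None of 7 compared Notch genes passed it either. Among them Hey1 (62.0 and 42.2 CPM, 0.55), Heyl (48.3 and 36.0 CPM, 0.42) and the receptor Notch3 (67.6 and 51.8 CPM, 0.39) were higher in Myf5-only cells, while Hes1 (109 and 148 CPM, -0.44) and the receptor Notch1 (95.1 and 115 CPM, -0.27) were higher in Myod1-only cells. Below the 10 CPM minimum, Dll1 and Nrarp of the same list, chosen after their values were seen, stood further apart. Dll1, also on the committed myoblast list, was at 2.11 and 13.8 CPM (-2.71, -3.52 to -1.98, 18 and 106 UMIs). Nrarp went the other way at 9.27 and 4.82 CPM (0.94, 0.36 to 1.55). Igfbp5, a secreted binder of insulin-like growth factors, stood at 550 and 719 CPM (-0.39). Of the upstream muscle factors, none of 5 compared passed 1.5-fold, too few to read.

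Id proteins bind E proteins and block them. Among the Id proteins, the E proteins, and Msc, Twist1 and Snai2 listed with them, most differences were small. Of 10 compared, Msc passed 1.5-fold towards Myf5-only cells, where 1.56% of all genes did. Id4 (9.63 and 21.1 CPM, -1.13) passed it towards Myod1-only cells, where 1.75% of all genes did. A list of 10 is too small to read these counts. Id4 RNA lay in few cells, as the 5% highest held 65.9% of its UMIs in Myf5-only and 75.3% in Myod1-only cells. Id3 stood at 849 and 957 CPM, Tcf12 at 134 and 162 CPM and Tcf4 at 495 and 433 CPM. The inhibitors of the cell cycle split as well. Cdkn1a (322 and 426 CPM, -0.41) and Cdkn1c were higher in Myod1-only cells, Cdkn1b (78.3 and 58.8 CPM, 0.41) and Cdkn2b (0.52) in Myf5-only cells, and none of 12 genes of cell cycle exit passed 1.5-fold (3.32% of all genes did).

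**Figure D5:**
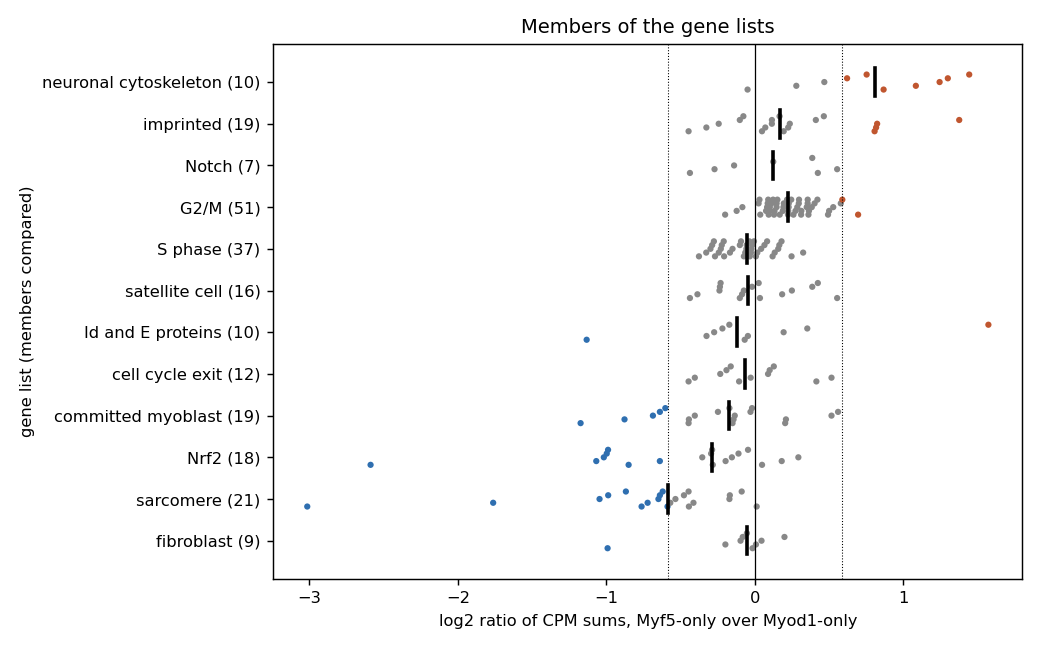
Log2 ratio of summed CPM, Myf5-only over Myod1-only (x), for the compared members of 12 gene lists (y, number of members in brackets). Black bars are medians, dotted lines mark 1.5-fold, and coloured points lie past it. The neuronal cytoskeleton list has a median of 0.81 and the sarcomere list -0.59, while the satellite cell, S phase and cell cycle exit lists lie around 0.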

How the data were processed

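UMI counts per gene and barcode were used as deposited by the authors in 2 matrices, which Cell Ranger 4 made, per the file headers. The submitters' processing notes name Cell Ranger 4.0, Seurat 3.2.3 and GRCm38.p6. Both libraries were trypsinised cultures prepared with a 10x Genomics 3' kit of version 3, per the labels' protocols. The iMPC matrix lists 6794880 barcodes with 282903287 UMIs, so it holds uncalled barcodes, and the MEF matrix lists 6113.

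UMIs were summed over the cells of each class and divided by the class total (8517955 UMIs for Myf5-only and 7670974 for Myod1-only cells) to give CPM. Ratios carry exact conditional 95% intervals, levels exact Poisson and shares exact binomial ones. They cover counting error only. No test was made, since cells of 1 library are not replicates. Genes with at least 10 CPM over the gate were compared, without Myf5, Myod1, Myog and Dcn. Shares of cells were thinned to 5000 UMIs per cell. Scrublet in scanpy 1.11.5 scored 337 doublets among 9349 iMPC cells, which were kept. Python 3.11.15, numpy 2.4.6, scipy 1.17.1 and pandas 2.3.3 were used, and the ratios were tested on simulated data. Positions come from GENCODE M21, which held 25989 of 26100 gene identifiers.

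Named genes were the markers of the rule, the 10 largest ratios in each direction at 50 CPM or more, and the 2 largest of each list in each direction. Others were chosen after their values were seen, as were 4 lists (neuronal cytoskeleton, imprinted, Nrf2, and amino acid and one-carbon stress). All members and lists were chosen with earlier results of these data known. Alternatives covered the limits, depth, doublets, scaling, free RNA and single cells of high level.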

Additional observations from a re-analysis of the deposited data

How the results depend on the processing

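No paired analysis was possible because each group has 1 library. Of the main values recomputed under alternatives, 114 stayed inside the main interval, or within 1.5-fold for counts of genes. Another 20 left it, and 3 turned where the main interval excluded no difference. A change of sign inside the main interval counts as staying. The S phase median, for example, was -0.06 in the main comparison and 0.03 in cells without a Mki67 or Top2a UMI. The cause of the changes was not tested. Genes past 1.5-fold towards Myf5-only and Myod1-only cells numbered 57 and 64 when 1 UMI sufficed, 432 and 381 in cells without a Mki67 or Top2a UMI, 16 and 22 at 50 CPM or more, and 1937 and 2245 with no minimum. Towards Myf5-only cells they numbered 186 at 3 UMIs or more and 221 without each gene's 5% highest cells. The Pax7 log2 ratio was 0.40 in cells with and -0.20 in cells without a Mki67 or Top2a UMI. The sarcomere median was -0.40 at no more than 10% mitochondrial UMIs, -0.45 at 3 UMIs or more, 0.0793 with membership after thinning, -1.22 without and -0.10 with a Mki67 or Top2a UMI, -0.0889 without the 5% of cells with most sarcomere RNA, -1.35 with free RNA subtracted and -0.12 without each gene's 5% highest cells. The committed myoblast median was 0.0416, -0.0660 and -0.0836 with thinned membership, without the sarcomere-rich cells and without each gene's highest cells. These last 2 alternatives were chosen after seeing the data. Among single genes Acta1 (0.41), Myl1 (0.25) and Myh3 (0.0285) turned with thinned membership, Col1a1 turned when 1 UMI sufficed (1.44) and without a Mki67 or Top2a UMI (0.50), and Top2a turned when depth classes were weighted alike (-0.0403). Msc, Stmn2, Slc2a3, Pde1a and Rpl39l kept their direction in all alternatives run, but not always their size. The Rpl39l log2 ratio ranged from -2.44 to -0.73.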

Other observations

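Genes of amino acid and one-carbon metabolism, which respond to amino acid stress, were mostly higher in Myf5-only cells. In a list drawn up after the values were seen, 12 of 13 compared genes had a log2 ratio above 0 and the median was 0.28, but only Mthfd2, a mitochondrial folate enzyme, passed 1.5-fold (128 and 80.2 CPM, 0.67), where 1.56% of all genes did. Asns, asparagine synthetase, stood at 129 and 92.7 CPM, and Psat1 and Phgdh of serine synthesis at 123 and 95.03 CPM and at 207 and 171 CPM. The stress factor Atf4 was at 193 and 168 CPM.

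Secreted binders of insulin-like growth factors were divided between the sides. Igfbp2 (211 and 158 CPM), Igfbp3 (487 and 379 CPM) and Igfbp4 (50.8 and 36.4 CPM) were higher in Myf5-only cells, while Igfbp6 (10.4 and 15.3 CPM) was higher in Myod1-only cells, and each of these ratios was under 1.5-fold. Sox9, a factor of cartilage, stood at 87.9 and 55.7 CPM (0.66), while the cartilage matrix genes Acan, Comp and Matn1 had no UMI on either side. Among 18 genes known to respond to dissociation of cells, only Atf3 passed 1.5-fold, towards Myf5-only cells (13.1 and 8.60 CPM). That is 5.56% of the list, beside 1.56% of all genes, and 1 gene is too few to read.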
